A study of Homo sapiens with 8 samples.

Results

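The respiratory complex I of human cells holds subunits encoded in the nucleus and subunits encoded in mitochondrial DNA. The genes described here are the nuclear ones, chosen by name: every gene called NDUFA, NDUFB, NDUFC, NDUFS or NDUFV with a number, and NDUFAB1. The rule found 38 of the 62649 genes in the expression table. No measured value entered it, though it was chosen with earlier results of these data known. AsPC-1 and PANC-1, 2 established human pancreatic cancer cell lines labelled as wild type, were grown for 3 days in a methylcellulose medium as three-dimensional spheroids. The spheroids of each line then received vehicle, 10 µM roseoflavin, 1 nM trametinib or both compounds for 24 hours, and poly(A) RNA was sequenced with a stranded kit. Roseoflavin is an analogue of riboflavin, the precursor of the flavin cofactors FMN and FAD. Trametinib inhibits the MEK kinases. The series holds 8 libraries, 1 for each line and treatment, so each p-value below takes its error from libraries of other treatments. Each line is a single model, and the p-values measure the spread between these libraries, which may be technical.

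Complex I, NADH:ubiquinone oxidoreductase, is the entry point of electrons from NADH into the respiratory chain and pumps protons across the inner mitochondrial membrane. Its N module oxidises NADH on an FMN bound by NDUFV1 and passes the electrons along iron-sulfur clusters. The Q module hands them to ubiquinone, and the membrane arm, whose core is made of the mitochondrially encoded ND proteins, moves the protons. Accessory subunits surround this core and are needed for its assembly or stability. NDUFA4 carries a complex I name but is now assigned to complex IV, and NDUFAB1 is the mitochondrial acyl carrier protein. That leaves 37 nuclear-encoded complex I genes: 10 of the N module, 6 of the Q module, 9 of the proximal and 12 of the distal membrane arm.

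All levels are TPM values, that is, reads divided by gene length and scaled to the same total in each library. An estimated 19510223 to 28001850 reads fell in genes per library. Genes of the mitochondrial genome, whose names start with MT-, took 41.2% to 44.1% of the TPM in the AsPC-1 libraries and 22.8% to 25.6% in the PANC-1 libraries. Because this share enters every TPM value, each comparison of the lines was repeated after the MT- genes were removed and the rest rescaled to the same total. The summed level of 7 epithelial markers was 9516 to 10971 TPM in AsPC-1, with all 7 at 1 TPM or more, against 2779 to 3094 TPM in PANC-1, with 6. The 4 mesenchymal markers summed to 668 to 825 TPM in AsPC-1 (2 of 4 at 1 TPM or more) against 3155 to 3416 TPM in PANC-1 (3 of 4). The 4 endothelial markers summed to at most 0.252 TPM. Of 4 immune markers CD68 was expressed in both lines and LYZ in AsPC-1 (sums 1965 to 2081 against 120 to 139 TPM), while PTPRC and CD3E stayed at or below 0.019 TPM. Of 5 fibroblast markers LUM alone reached 1 TPM in AsPC-1 and COL1A1 alone in PANC-1 (sums 103 to 146 and 99.8 to 108 TPM), with DCN listed at 0 in PANC-1. The part of these markers in the line differences below was not tested.

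All 38 genes were measured in all 8 libraries, at 7.79 to 927 TPM, and all passed the filter of 1 TPM in at least 2 libraries. The most abundant was NDUFA1, a small subunit of the proximal membrane arm encoded at chrX:119871487-119876662 (GRCh38, GENCODE 29, plus strand). Its level was 757, 734, 726 and 783 TPM in AsPC-1 with vehicle, roseoflavin, trametinib and both, and 835, 899, 891 and 927 TPM in PANC-1. NDUFS5, an intermembrane-space subunit of the same arm at chr1:39026318-39034636 (plus strand), came second in each line, and NDUFB10 of the distal arm followed, at means of 218 TPM ± 11.3 (SD of 4 libraries) in AsPC-1, against 278 TPM ± 9.88 in PANC-1. Together NDUFA1 and NDUFS5 made up 35.6% of the summed TPM of the 38 genes in AsPC-1, against 39.6% in PANC-1.

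At the low end, NDUFS7, the Q module subunit that carries the last iron-sulfur cluster before ubiquinone, stood at 7.79 to 9.30 TPM in AsPC-1, against 7.93 to 8.92 TPM in PANC-1. The N module accessory subunit NDUFV3 was at 9.03 to 10.2 TPM in AsPC-1, against 8.83 to 10.4 TPM in PANC-1. The remaining genes of the lowest 3 were NDUFA5 in AsPC-1, with a mean of 11.2 TPM, and NDUFA12 in PANC-1, with a mean of 9.12 TPM. The order of the genes was much alike in both lines, with a Pearson r of 0.963 over the log2 levels of the 38 genes, which share library, length and annotation in each line.

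Levels of different genes depend on the length each was divided by. For 12 of the 38 genes the TPM values fit whole reads divided by the merged length of all exons in GENCODE 29, for 21 only another length fits, and for 5, among them NDUFA12, no length was recovered. The merged length reaches 8.98 times the principal transcript for NDUFA11, a proximal arm subunit. On its principal transcript NDUFA11 would rank 9th among the 38 genes in AsPC-1 instead of 29th, and NDUFS7 27th instead of 38th. NDUFA1 and NDUFS5 kept ranks 1 and 2 in both lines on either length. Ratios of a gene's TPM between libraries do not depend on this length. The log2 differences below add 1 to each TPM value and so depend on it somewhat, most at low levels.

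**Figure D1:**
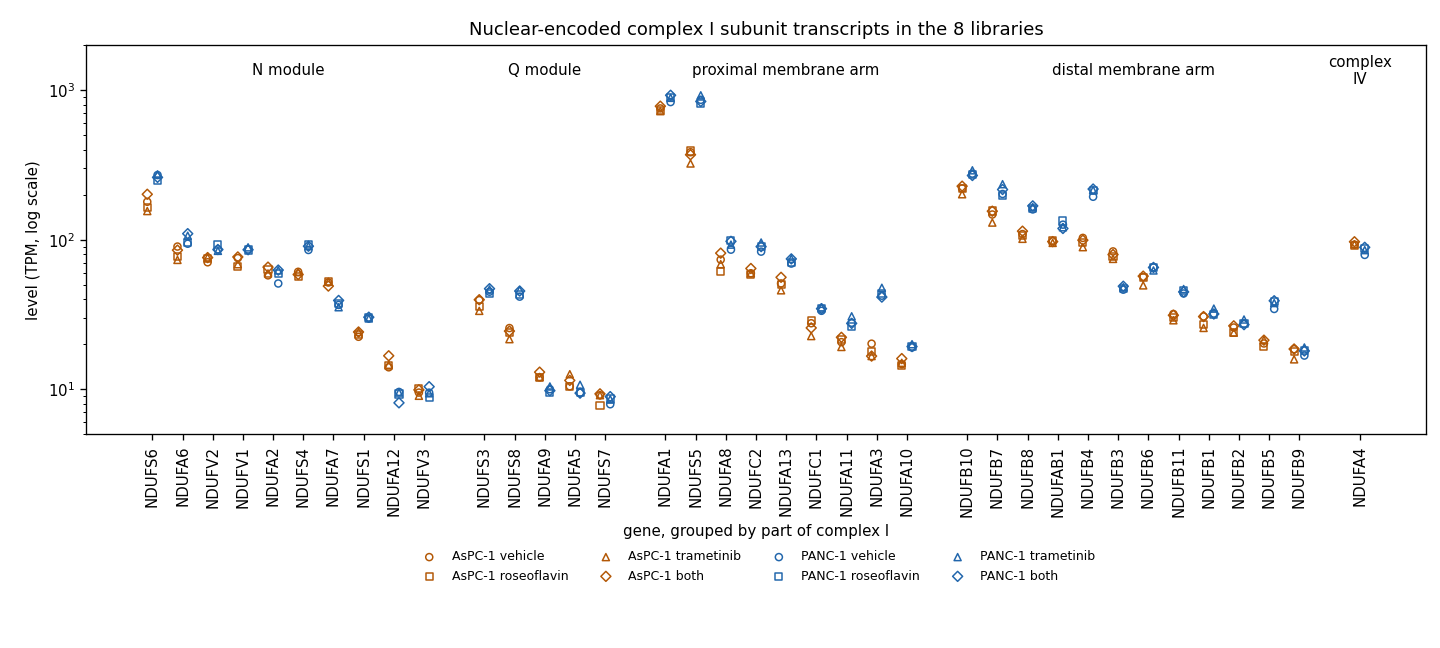
Levels of 37 of the 38 genes in TPM on a log axis, grouped by part of the complex and sorted within each by the AsPC-1 mean; brown symbols are the 4 AsPC-1 libraries, blue symbols the 4 PANC-1 libraries, and the symbol shape gives the treatment. NDUFA1 and NDUFS5 stand above all others, and the treatments of a line lie close together compared with the distance between genes.

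The summed level of the 38 genes was higher in PANC-1, and most of that gap went with the smaller mitochondrial share. The sums were 3204, 3119, 2957 and 3282 TPM in the AsPC-1 libraries with vehicle, roseoflavin, trametinib and both, and 4283, 4355, 4565 and 4463 TPM in the PANC-1 libraries. The lines did not overlap, and the ratio of their means was 1.41. After the MT- genes were removed, the sums were 5447, 5575, 5119 and 5594 TPM in AsPC-1 and 5757, 5708, 6069 and 5782 TPM in PANC-1, a ratio of 1.07. The lines still did not overlap, with 5594 TPM as the highest AsPC-1 and 5708 TPM as the lowest PANC-1 value. This remaining gap is small beside that of a single abundant gene. NDUFS5 had a mean of 637 TPM in AsPC-1 against 1137 TPM in PANC-1, where the mean sums were 5433 and 5829 TPM. The median gene level was lower in PANC-1 on both scales, at 47.0 against 51.1 TPM, and at 62.0 against 88.5 TPM without MT- genes. Each median was taken within a line, so different genes can lie in the middle. Gene by gene, 29 of the 38 had a higher estimate in PANC-1 on the TPM scale, and 16 without MT- genes.

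The balance between both genomes differed more. Transcripts of the 7 MT-ND genes, which encode the membrane core, summed to 32.4 to 37.5 times the nuclear 38 in AsPC-1 and to 17.8 to 20.5 times in PANC-1. This ratio is taken within each library and does not depend on the total used for scaling, but it does depend on the gene lengths used. MT-ND4L alone gave 39464 of the 103942 TPM of the MT-ND genes in the AsPC-1 vehicle library. In the PANC-1 vehicle library it gave 39083 of 87798.5 TPM. The ratio compares transcript levels only, and its lowest AsPC-1 value, in the vehicle library, lay well above its highest PANC-1 value, also with vehicle. In bulk RNA, fewer cells that express a gene and less of its RNA per cell cannot be told apart.

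**Figure D2:**
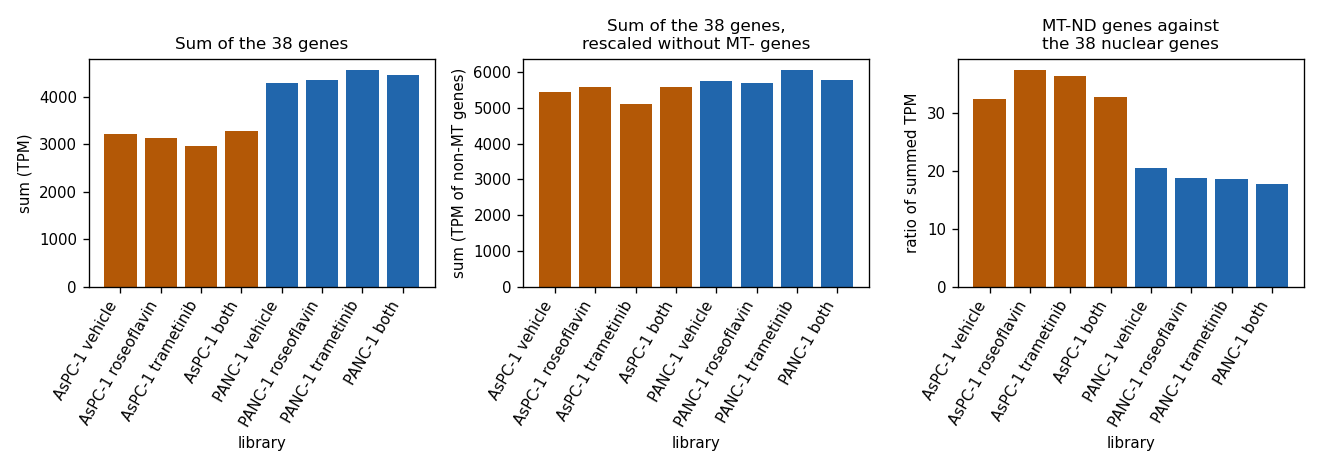
Summed TPM of the 38 genes (left), the same after rescaling without MT- genes (middle) and the summed TPM of the MT-ND genes divided by that of the 38 genes (right), one bar per library, AsPC-1 in brown and PANC-1 in blue. The gap between the lines shrinks from a ratio of 1.41 to 1.07 when the MT- genes are left out, and the ratio on the right is 32.4 to 37.5 in AsPC-1 against 17.8 to 20.5 in PANC-1.

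The genes did not differ between the lines alike. On the TPM scale 28 of the 38 genes were higher in PANC-1 and 6 higher in AsPC-1 by limma (adjusted p under 0.05). In the same test 62.3% of all 19122 genes tested were called higher in PANC-1 and 21.5% higher in AsPC-1, or 83.8% in either direction, and the members' counts lie near this background. The median difference, PANC-1 minus AsPC-1 in log2 of TPM + 1, was 0.34 for the 38 genes and 0.55 for all genes. Without MT- genes 10 were higher in PANC-1 and 15 higher in AsPC-1, against 49.7% and 30.9% (80.6% in either direction) of 19085 genes, and the medians were -0.04 and 0.25. After quantile normalization, which forces all libraries to 1 distribution, 9 and 18 were called, against 41.6% and 37.5% of all genes (79.2% in either direction), and the medians were -0.11 and 0.04. Removing the MT- genes moved the median of all genes by 0.31 and that of the 38 genes from 0.34 to -0.04. Directions of genes this near 0, some of them beyond 0.31 on the TPM scale, depend on the scale.

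Counted without a test, all 4 PANC-1 libraries lay above all 4 AsPC-1 libraries for 28 genes and below them for 5, against 59.4% and 19.8% of all genes (79.2% either way). Without MT- genes the counts were 10 and 13, against 46.9% and 28.9% (75.7% either way). The span from the lowest to the highest gene, 1.97 on the log2 scale or 3.9-fold, was much the same on both scales (1.99 without MT- genes). Under all 3 scalings tried, genes called higher in PANC-1 included NDUFA3, NDUFB4, NDUFB5, NDUFB8, NDUFS4, NDUFS5 and NDUFS8, and those called higher in AsPC-1 were NDUFA4, NDUFA5, NDUFA7, NDUFA9, NDUFA12 and NDUFB3.

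**Figure D3:**
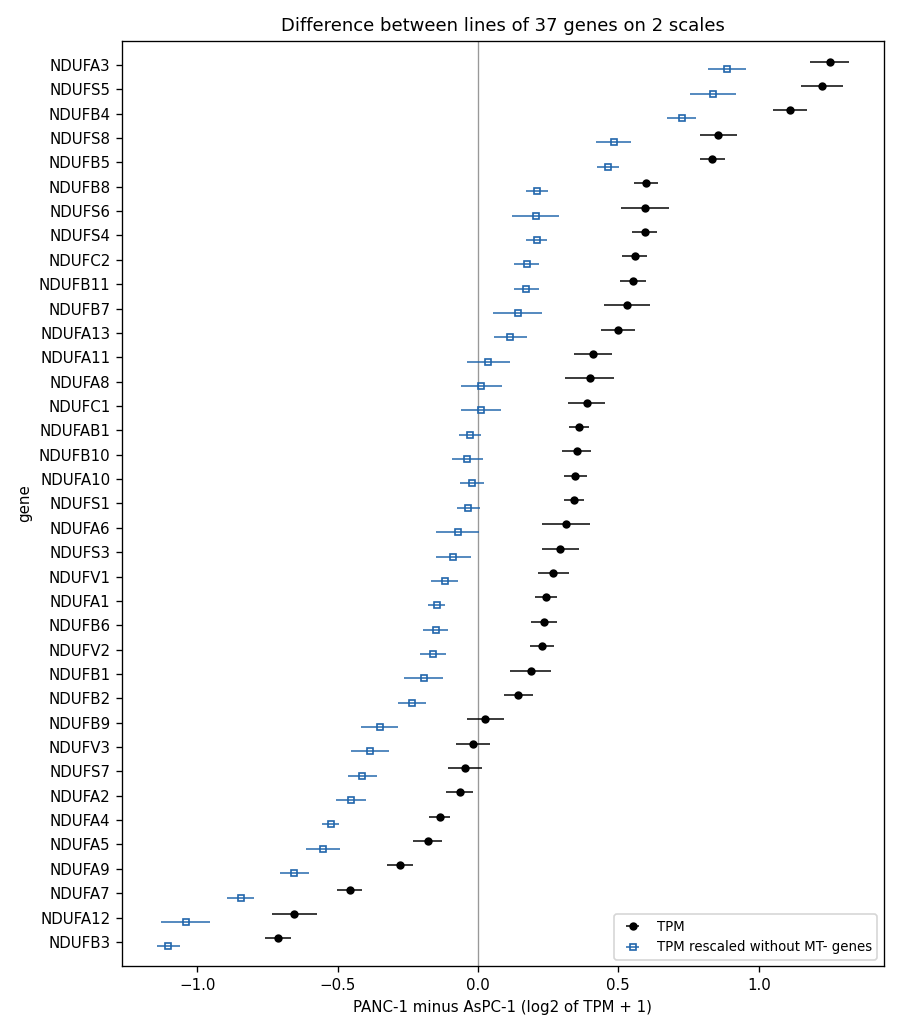
Difference between the lines, PANC-1 minus AsPC-1, in log2 of TPM + 1 for 37 of the 38 genes, on the TPM scale (black) and after rescaling without MT- genes (blue); bars are standard errors of the limma fit over 8 libraries. NDUFA3, NDUFS5 and NDUFB4 lie to the right of 0 and NDUFB3, NDUFA12 and NDUFA7 to the left on both scales, while 5 genes are called with opposite signs.

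In the N module, 6 of 10 genes were higher in PANC-1 and 2 in AsPC-1 on the TPM scale, against 1 and 5 without MT- genes and 2 and 7 after quantile normalization. The shares of all genes for these and the following counts are those given above for each scale. NDUFV1, which binds NADH and the FMN, is encoded at chr11:67605653-67612554 (plus strand). It stood at 75.4, 66.5, 68.6 and 76.7 TPM in AsPC-1 with vehicle, roseoflavin, trametinib and both, and at 86.1, 85.4, 89.0 and 85.8 TPM in PANC-1. Every PANC-1 library was above every AsPC-1 library, by 0.27 ± 0.06 (SE) on the log2 scale (adjusted p = 0.00364), but without MT- genes the difference was -0.12 (adjusted p = 0.0591). NDUFV2, its iron-sulfur partner, was called higher in PANC-1 by 0.23 on the TPM scale and lower by -0.16 without MT- genes. NDUFS1, the largest subunit with several iron-sulfur clusters, differed by 0.34 (adjusted p = 9.86e-05) and by -0.03 without MT- genes (adjusted p = 0.463).

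Among the accessory N module genes, NDUFA12 differed most. It was at 14.0, 14.4, 14.6 and 16.7 TPM in AsPC-1 with vehicle, roseoflavin, trametinib and both, and at 9.59, 9.28, 9.49 and 8.10 TPM in PANC-1. The lines did not overlap, and AsPC-1 was higher by a difference of -0.65 ± 0.08 (adjusted p = 0.000242), or -1.04 without MT- genes. NDUFA12 had the fewest estimated reads of the 38 genes, 99 in the PANC-1 library with both compounds, where counting alone would give an error of 10.1%, but its length was not recovered and these reads rest on the GENCODE length. NDUFA7 was also lower in PANC-1, at 35.4 to 39.3 TPM against 49.0 to 52.5 TPM in AsPC-1, a difference of -0.46. NDUFS4, a subunit often mutated in Leigh syndrome, went the other way, at 85.4 to 92.5 TPM in PANC-1 against 56.5 to 61.0 TPM in AsPC-1. Its difference was 0.59 ± 0.04 (adjusted p = 1.56e-05) and 0.21 without MT- genes. NDUFS6 was higher in PANC-1 by 0.60 on the TPM scale, and without MT- genes it gave 0.21 (adjusted p = 0.058). NDUFA2 and NDUFV3 were not called on the TPM scale (-0.07 and -0.02) but were called higher in AsPC-1 without MT- genes (-0.45 and -0.38). NDUFA6 gave 0.31 and -0.07.

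In the Q module 3 of 6 genes were higher in PANC-1 and 2 in AsPC-1 on the TPM scale, against 2 and 3 without MT- genes and 2 and 4 after quantile normalization. NDUFS8, which carries a pair of iron-sulfur clusters, was at 25.6, 23.8, 21.6 and 24.5 TPM in AsPC-1 with vehicle, roseoflavin, trametinib and both, and at 41.6, 43.0, 46.1 and 45.4 TPM in PANC-1. The difference was 0.86 ± 0.07 (adjusted p = 1.98e-05), and 0.48 without MT- genes. NDUFS7 gave -0.05 on the TPM scale (adjusted p = 0.491), and its libraries overlapped between the lines. Without MT- genes it was called higher in AsPC-1 (-0.41). NDUFS3, another core subunit, differed by 0.29 on the TPM scale (adjusted p = 0.00569) and by -0.09 without MT- genes (adjusted p = 0.229). Both accessory subunits were higher in AsPC-1 on both scales: NDUFA9, a reductase-like protein, by -0.28 and NDUFA5 by -0.18 on the TPM scale. The call for NDUFA5 was lost without the PANC-1 vehicle library (-0.17, adjusted p = 0.0535) and without the PANC-1 library with both compounds (-0.14, adjusted p = 0.0525).

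All 9 genes of the proximal membrane arm were higher in PANC-1 on the TPM scale, but without MT- genes 3 were higher and 1 lower, and after quantile normalization 2 and 1. NDUFA3, a small single-span membrane subunit at chr19:54102728-54109257 (plus strand), had the largest difference of the 38 genes. It stood at 20.2, 17.8, 16.7 and 16.7 TPM in AsPC-1 with vehicle, roseoflavin, trametinib and both, and at 42.2, 43.8, 47.7 and 41.3 TPM in PANC-1. Every PANC-1 value was more than every AsPC-1 value, with a fold of 2.38 on the TPM + 1 scale, a log2 difference of 1.25 ± 0.07 and an adjusted p of 3.70e-06. Without MT- genes its difference was 0.89.

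NDUFS5 stood at 385, 393, 324 and 371 TPM in AsPC-1 with the same 4 treatments and at 864, 812, 926 and 843 TPM in PANC-1. Its log2 difference was 1.23 ± 0.08 (adjusted p = 6.55e-06), and 0.84 without MT- genes. Within a library NDUFS5 was at 0.446 to 0.535 times the level of NDUFA1 in AsPC-1 and at 0.904 to 1.04 times in PANC-1. That ratio of the most abundant pair is free of the scaling. NDUFA1 itself was called in opposite directions, at 0.24 on the TPM scale and -0.15 without MT- genes. NDUFC2, another subunit of this arm, was higher by 0.56 and 0.17 on these scales, and the call was lost after quantile normalization (adjusted p = 0.0581). NDUFA8, NDUFA10, NDUFA11, NDUFA13 and NDUFC1 were called on the TPM scale, at 0.35 to 0.50, but not without MT- genes.

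In the distal membrane arm 10 of 12 genes were higher in PANC-1 and 1 in AsPC-1 on the TPM scale, against 4 and 5 without MT- genes and 3 and 5 after quantile normalization. NDUFB4, an accessory subunit at chr3:120596309-120602500 (plus strand), was at 103, 95.5, 89.2 and 99.4 TPM in AsPC-1 with vehicle, roseoflavin, trametinib and both, and at 194, 213, 215 and 219 TPM in PANC-1. The lines were about 2.16-fold apart with no overlap (log2 difference 1.11 ± 0.06, adjusted p = 3.32e-06), and 0.72 apart without MT- genes. NDUFB5 was higher in PANC-1 by 0.83 and NDUFB8 by 0.60, or 0.46 and 0.21 without MT- genes. NDUFB7 gave 0.53 on the TPM scale (adjusted p = 0.000803) and 0.14 without MT- genes (adjusted p = 0.176). NDUFB11, which is encoded on the X chromosome, gave 0.55 and 0.17 but was not called after quantile normalization (adjusted p = 0.134).

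NDUFB3, at chr2:201071433-201085750 (plus strand), was the only distal arm gene called higher in AsPC-1 on the TPM scale; without MT- genes NDUFB1, NDUFB2, NDUFB6 and NDUFB9 were too. It stood at 83.5, 77.0, 74.5 and 79.6 TPM in AsPC-1 and at 46.3, 47.0, 48.2 and 48.8 TPM in PANC-1, in the same order of treatments. AsPC-1 was higher in every library, with a difference of -0.71 ± 0.05 (adjusted p = 9.93e-06), or -1.10 without MT- genes. Within a library NDUFB4 was at 1.2 to 1.25 times the level of NDUFB3 in AsPC-1 and at 4.19 to 4.53 times in PANC-1. The line differences of these genes have opposite signs, so the gap in their ratio follows from them and is no separate result.

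The acyl carrier protein NDUFAB1 and NDUFB10 were called higher in PANC-1 on the TPM scale, by 0.36 and 0.35, and gave -0.03 and -0.04 without MT- genes. NDUFB1, NDUFB2 and NDUFB6 were called with opposite signs on these scales. The TPM calls of NDUFB1 and NDUFB2 were close to the threshold (adjusted p = 0.0493 and 0.0377). For NDUFB1 the call was lost without either the roseoflavin or the trametinib library of AsPC-1 or without any of the PANC-1 libraries (0.11 to 0.20, adjusted p = 0.0649 to 0.14). With a pseudocount of 0.1 the adjusted p of NDUFB1 was 0.0526, and without a filter on low values it was 0.0753 for NDUFB1 and 0.0502 for NDUFB2. For NDUFB2 the call was lost without either of the same AsPC-1 libraries or without the vehicle, roseoflavin or trametinib library of PANC-1 (0.10 to 0.15, adjusted p = 0.0711 to 0.112). NDUFB9 gave 0.03 on the TPM scale (adjusted p = 0.724) and overlapped between the lines.

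NDUFA4, the complex IV protein with a complex I name, was at 91.5 to 97.0 TPM in AsPC-1, against 79.2 to 89.0 TPM in PANC-1. It was higher in AsPC-1 by a difference of -0.14 ± 0.04 (adjusted p = 0.011) and of -0.52 without MT- genes. Its relative NDUFA4L2, a gene known from hypoxic cells, was at most 0.176 TPM in AsPC-1, against 0.973 to 1.39 TPM in PANC-1.

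Some of these rows share exons with another row, and how shared reads were counted is not given in the sources used here. NDUFC2 overlaps the readthrough gene NDUFC2-KCTD14, which stood at 161 TPM in the AsPC-1 vehicle library and 245 TPM in that of PANC-1, a line difference of 0.71. NDUFA7 shares 32.3% of its merged exon length with AC010323.1, NDUFB8 33.8% with AL133352.1, NDUFV2 28.4% with AP005263.1 and NDUFS3 19.6% with PTPMT1. NDUFA9, NDUFA11, NDUFA13, NDUFB2, NDUFC1, NDUFS1, NDUFS8 and NDUFV1 overlap other rows by 1.3% to 18.5% of their length, and the levels of all these genes are uncertain. The shared length does not bound the shared reads: for NDUFB8 the overlap is 675 bases and its principal transcript 671 bases. Of 57 rows named as pseudogenes of the 38 genes, 46 were listed at 0 in all libraries, 3 reached 1 TPM and the highest value was 1.75 TPM.

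The promoters of 4 genes are shown because they carry the motif of nuclear respiratory factor NRF1 while their line differences have opposite signs. They were thus chosen for the motif and for these differences. A 250-base window before the RefSeq start (GRCh38.p14) could be matched for 32 of the 38 genes. The NRF1 motif, searched on both strands as GCGCA and GCGC with any 1 base between them, was in 15.6% of these 32 windows and in 5.53% of the 27305 windows of all genes. It was found in 5 genes: 2 matches each in NDUFA3 and NDUFB4, which were higher in PANC-1, and 1 match each in NDUFA12, NDUFA9 and NDUFA11. NDUFA12 and NDUFA9 were higher in AsPC-1. NDUFA11, whose window is not shown, was called higher in PANC-1 on the TPM scale but not without MT- genes (0.036, adjusted p = 0.683 by limma). An ETS motif, CCGGAAG on both strands, was in 15.6% of the windows (5 genes) against 8.81%. A YY1 motif, ATGGCGGC on both strands, was in 6.25% (2 genes) against 1.34%. CCAAT was found in 25% against 33.0% and TATAAA in 9.38% against 11.1%. The median GC content was 61.2% in the 32 windows and 58% in those of all genes. Windows of like GC content, or of expressed genes alone, were not compared, so these shares do not show enrichment. A match describes these letters and is no evidence of binding. The windows follow 5′ to 3′ on the strand of the gene, with the NRF1 motif in capitals. They lie at chr19:54102605-54102854 (NDUFA3, plus strand), chr3:120596086-120596335 (NDUFB4, plus strand), chr12:95003698-95003947 (NDUFA12, minus strand) and chr12:4648864-4649113 (NDUFA9, plus strand).
NDUFA3: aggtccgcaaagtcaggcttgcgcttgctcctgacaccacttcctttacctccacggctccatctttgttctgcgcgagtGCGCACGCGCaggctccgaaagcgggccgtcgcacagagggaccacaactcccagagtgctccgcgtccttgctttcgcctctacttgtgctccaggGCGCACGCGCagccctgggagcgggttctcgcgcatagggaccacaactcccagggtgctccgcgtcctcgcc
NDUFB4: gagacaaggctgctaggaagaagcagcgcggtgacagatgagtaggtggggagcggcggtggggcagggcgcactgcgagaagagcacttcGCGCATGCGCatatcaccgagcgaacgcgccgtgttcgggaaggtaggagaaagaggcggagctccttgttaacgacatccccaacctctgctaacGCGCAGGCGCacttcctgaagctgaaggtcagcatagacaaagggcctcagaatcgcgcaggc
NDUFA12: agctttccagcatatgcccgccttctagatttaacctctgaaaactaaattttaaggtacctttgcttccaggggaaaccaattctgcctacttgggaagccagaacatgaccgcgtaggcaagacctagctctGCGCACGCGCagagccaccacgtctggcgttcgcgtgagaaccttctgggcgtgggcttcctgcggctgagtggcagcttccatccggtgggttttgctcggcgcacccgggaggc
NDUFA9: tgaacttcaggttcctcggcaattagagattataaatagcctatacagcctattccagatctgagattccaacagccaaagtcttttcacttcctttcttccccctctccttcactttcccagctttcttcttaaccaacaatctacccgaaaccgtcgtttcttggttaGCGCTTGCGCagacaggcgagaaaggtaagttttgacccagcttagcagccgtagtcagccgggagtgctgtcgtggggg
The first base of the motif lies at -170 and -73 in NDUFA3, at -159 and -63 in NDUFB4, at -116 in NDUFA12 and at -80 in NDUFA9, counted from the RefSeq start. Most windows of genes that differed between the lines hold no match, among them those of NDUFB3, NDUFA7, NDUFS8, NDUFB8 and NDUFS4. NRF1 transcripts were higher in PANC-1 by 0.56 on the TPM scale and by 0.22 without MT- genes. These values lie near the medians of all genes, 0.55 and 0.25, and a part of NRF1 in the line differences was not tested.

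The other genes of the respiratory chain give the setting. The MT-ND genes ran against most of their nuclear partners on the TPM scale: 6 of 7 were lower in PANC-1 and none was higher, with a median of -0.50. MT-ND3 was lowest, at 9606, 11153, 9949 and 10579 TPM in AsPC-1 with vehicle, roseoflavin, trametinib and both against 4737, 4568, 4761 and 4362 TPM in PANC-1, a difference of -1.16. MT-ND2 gave -1.08, MT-ND1 -0.76, MT-ND6 -0.50, MT-ND4 -0.24 and MT-ND4L -0.18. MT-ND5 was at 6457, 6680, 6527 and 6199 TPM in AsPC-1 and at 6675, 6008, 6436 and 5746 TPM in PANC-1, overlapping, with a difference of -0.06 (adjusted p = 0.303). After quantile normalization 3 of the 7 were called higher and 4 lower in PANC-1.

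Of 20 factors that assemble complex I, 13 were higher and 3 lower in PANC-1 on the TPM scale (median 0.31), against 62.3% and 21.5% of all genes. Without MT- genes 7 and 7 were called (49.7% and 30.9% of all genes), and after quantile normalization 6 and 12 (41.6% and 37.5%). TIMMDC1, which builds the proximal membrane arm, was at 24.995 to 28.8 TPM in AsPC-1, against 87.7 to 89.5 TPM in PANC-1, a difference of 1.72, and 1.35 without MT- genes. NDUFAF8, a partner of NDUFAF5 in modifying NDUFS7, gave 1.58. ACAD9 and NDUFAF1, which work together in building the membrane arm, gave 1.36 and 1.30. NDUFAF2, a relative of NDUFA12 that holds its place during assembly, was lower in PANC-1 by -0.35 on the TPM scale and by -0.73 without MT- genes, in the same direction as NDUFA12.

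Of complexes II to V, 2 of 4 genes of complex II were higher and 1 lower in PANC-1, as were 4 and 2 of 9 of complex III, 3 and 4 of 10 of complex IV and 8 and 6 of 15 of complex V, all on the TPM scale. Without MT- genes the counts were 1 and 2, 2 and 5, 1 and 7, and 4 and 8, and after quantile normalization 1 and 2, 2 and 5, 1 and 7, and 4 and 10. The medians on the TPM scale were 0.23, -0.02, -0.08 and 0.20, beside 0.34 for the nuclear complex I genes and 0.55 for all genes. SDHA, the flavoprotein of complex II that carries FAD, gave -0.43 on the TPM scale and -0.82 without MT- genes, and SDHB, its iron-sulfur partner, 0.85 and 0.47. Among regulators of respiratory genes 7 of 9 tested were higher and 1 lower on the TPM scale, 4 and 2 without MT- genes, and 2 and 4 after quantile normalization. PPRC1, a coactivator, gave 1.24 and ESRRA, a nuclear receptor, -0.92, while PPARGC1A was at no more than 0.067 TPM in any library.

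**Figure D4:**
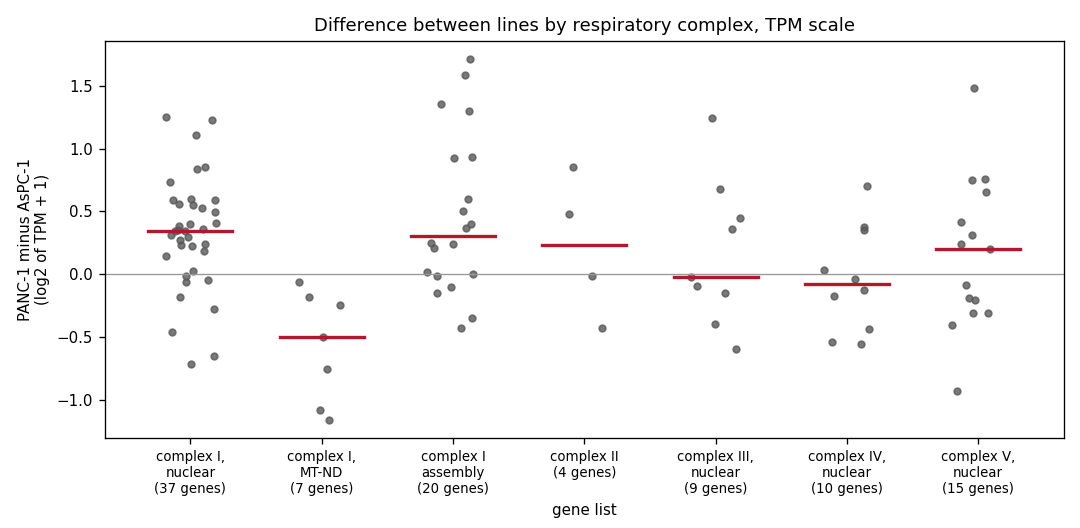
Difference between the lines, PANC-1 minus AsPC-1, in log2 of TPM + 1, for each gene (points) of complex I and its assembly factors and of complexes II to V; red bars are medians, and NDUFA4 is left out. On this TPM scale the MT-ND genes lie below 0 (median -0.50) and most nuclear complex I genes above it, while without MT- genes the median of the nuclear genes is close to 0.

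Neither compound gave a detectable difference in any of the 38 genes. By limma, none of the 38 and 0.0% of the 19122 genes passed an adjusted p of 0.05 for roseoflavin, for trametinib, for either compound within a line, for the difference of these effects between the lines, or for the interaction of the compounds. At an unadjusted p under 0.05, roseoflavin over both lines gave 1 member (of 1358 genes), NDUFA2, and trametinib 1 (of 938), NDUFA5. Trametinib within AsPC-1 gave 2 members (of 2691 genes) and within PANC-1 another 2 (of 919). Roseoflavin gave 1 within AsPC-1 (of 2163) and 0 within PANC-1 (of 2074). The differences between the lines gave 3 for roseoflavin (of 2227) and 3 for trametinib (of 1854), and the interaction gave 0 (of 536).

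NDUFV1, the FMN-binding subunit, differed by -0.02 with roseoflavin over both lines, with a 95% interval of -0.16 to 0.11. Within AsPC-1 the interval was -0.27 to 0.25 and within PANC-1 -0.29 to 0.23. In AsPC-1 the 2 libraries with 1 compound, at 66.5 and 68.6 TPM, were lower than those with vehicle or both, while the PANC-1 libraries spanned only 85.4 to 89.0 TPM. Trametinib gave 0.03 over both lines, with an interval of -0.10 to 0.17.

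NDUFA2, an N module accessory subunit, was the member with the highest roseoflavin estimate over both lines, 0.12 ± 0.05 (adjusted p = 0.698 by limma). Its levels were 57.8, 63.1, 59.5 and 65.6 TPM in AsPC-1 with vehicle, roseoflavin, trametinib and both, and 51.0, 59.4, 62.4 and 62.7 TPM in PANC-1. The vehicle library was the lowest of each line. NDUFA5 of the Q module had the highest trametinib estimate, 0.13 ± 0.05 (adjusted p = 0.861 by limma), with 10.5, 10.4, 12.6 and 11.4 TPM in AsPC-1 and 9.46, 9.52, 10.7 and 9.41 TPM in PANC-1. It was highest with trametinib alone in each line, and lower when roseoflavin was added.

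NDUFC1, a small subunit of the proximal arm, had the lowest trametinib estimate in AsPC-1. It stood at 27.6, 28.9, 22.7 and 25.7 TPM in AsPC-1 with vehicle, roseoflavin, trametinib and both, and at 33.5, 34.6, 35.3 and 34.6 TPM in PANC-1. The AsPC-1 effect was -0.22 ± 0.05 (adjusted p = 0.297 by limma), both libraries with trametinib lying below both without. The effect in PANC-1 minus that in AsPC-1 was 0.26 (adjusted p = 0.498 by limma). NDUFS5 likewise gave -0.17 for trametinib in AsPC-1 (adjusted p = 0.340).

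NDUFB7, a distal arm subunit on the intermembrane side, had the highest roseoflavin estimate in AsPC-1 and, after NDUFA6 and NDUFA2, the next highest trametinib estimate in PANC-1. Its levels were 148, 156, 130 and 155 TPM in AsPC-1 with the 4 treatments in that order, and 202, 197, 235 and 217 TPM in PANC-1. The trametinib library was thus the lowest of AsPC-1 and the highest of PANC-1. The effects were 0.16 for roseoflavin in AsPC-1 (adjusted p = 0.442) and 0.18 for trametinib in PANC-1 (adjusted p = 1 by limma). The difference of its trametinib effects between the lines was 0.27 (adjusted p = 0.508 by limma).

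The extremes of each effect, none past the adjusted threshold, came from all arms of the complex. Over both lines the highest roseoflavin estimates were those of NDUFA2 (0.12), NDUFA13 (0.07) and NDUFA8 (0.07) and the lowest those of NDUFA3 (-0.08), NDUFA5 (-0.08) and NDUFV1 (-0.02). Trametinib over both lines was highest for NDUFA5 (0.13), NDUFA2 (0.12) and NDUFA8 (0.10) and lowest for NDUFC1 (-0.09), NDUFAB1 (-0.07) and NDUFA3 (-0.06). NDUFA2 was thus high for each compound and NDUFA3 low. Roseoflavin in AsPC-1 was highest for NDUFB7 (0.16), NDUFA13 (0.13) and NDUFA2 (0.13) and lowest for NDUFA3 (-0.09), NDUFS7 (-0.09) and NDUFS4 (-0.08). In PANC-1 it was highest for NDUFA8 (0.14), NDUFA2 (0.11) and NDUFB5 (0.11) and lowest for NDUFA12 (-0.12), NDUFA11 (-0.12) and NDUFS5 (-0.11). NDUFA2 was among the 3 highest in each line. Trametinib in AsPC-1 was highest for NDUFA5 (0.19), NDUFA8 (0.15) and NDUFA12 (0.13) and lowest for NDUFC1 (-0.22), NDUFA3 (-0.17) and NDUFS5 (-0.17). Its PANC-1 effect was highest for NDUFA6 (0.18), NDUFA2 (0.18) and NDUFB7 (0.18) and lowest for NDUFAB1 (-0.11), NDUFA12 (-0.09) and NDUFV2 (-0.07). NDUFA12 was thus among the highest in AsPC-1 and the lowest in PANC-1. The roseoflavin effect in PANC-1 minus that in AsPC-1 was highest for NDUFS7 (0.17), NDUFA8 (0.15) and NDUFB5 (0.14) and lowest for NDUFA11 (-0.25), NDUFB7 (-0.24) and NDUFA12 (-0.23). For trametinib this difference was highest for NDUFB7 (0.27), NDUFA6 (0.27) and NDUFC1 (0.26) and lowest for NDUFA12 (-0.22), NDUFV2 (-0.13) and NDUFA5 (-0.12). The interaction of the compounds was highest for NDUFS6 (0.27), NDUFA6 (0.22) and NDUFS3 (0.22) and lowest for NDUFA5 (-0.15), NDUFA2 (-0.10) and NDUFV2 (-0.08).

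The median estimate of the 38 genes was 0.03 for roseoflavin in AsPC-1 (-0.03 for all genes) and 0.02 in PANC-1. For trametinib it was -0.01 in AsPC-1 (0.02 for all genes) and 0.06 in PANC-1 (0.01 for all genes). On the scale without MT- genes these medians were 0.06, -0.02, -0.03 and 0.04. The median standard error of a single gene was 0.06 within a line. In PANC-1 34 of the 38 trametinib estimates were above 0 and in AsPC-1 17, against 55.5% and 56.0% of all genes.

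**Figure D5:**
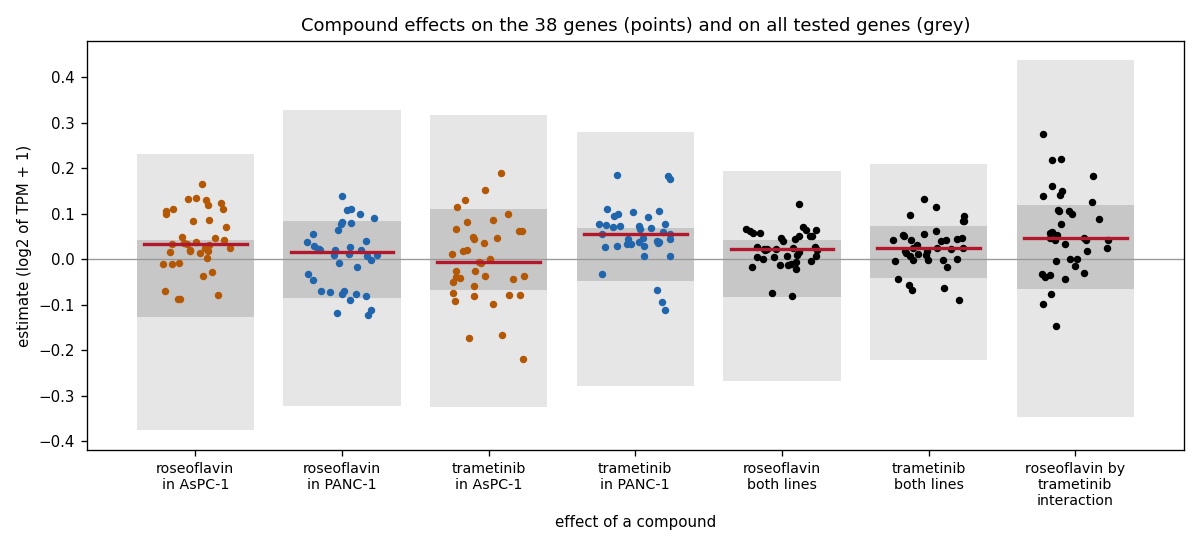
Limma estimates of the compound effects in log2 of TPM + 1 for the 38 genes (points; brown AsPC-1, blue PANC-1, black both lines), with the median as a red bar; dark grey boxes span the interquartile range of all genes tested and light boxes all but the outer 5% at each end. The points lie within the light boxes, between -0.22 and 0.27, and no gene passed the adjusted threshold.

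Each treated library was also compared with vehicle, 1 library against 1 and so without a test. No member reached 1.5-fold in any of the 6 comparisons. Of all genes 5.78% did with roseoflavin, 5.86% with trametinib and 6.15% with both in AsPC-1. The PANC-1 shares, in the same order, were 5.73%, 5.82% and 6.38%. All genes here include those near the filter of 1 TPM in 2 libraries, whereas no member was below 7.79 TPM. Genes of like level were not compared, so these shares do not show that the members were more stable. The 3 comparisons of a line share their vehicle library. In AsPC-1, trametinib alone gave higher values for 12 and lower values for 26 of the 38 genes with a median of -0.10, where 47.6% of all genes were higher. In PANC-1 it gave higher values for 32 with a median of 0.10, where 51.9% of all genes were higher. With both compounds 26 were higher in AsPC-1 (median 0.04; 46.8% of all genes) and 24 in PANC-1 (median 0.07; 51.1% of all genes). Roseoflavin alone gave 11 higher and 27 lower in AsPC-1 on the TPM scale, near the 32.9% of all genes that were higher, and the mitochondrial share of that library was 44.1%. Without MT- genes 23 were higher, against 47.3% of all genes. In PANC-1 roseoflavin gave 26 higher on the TPM scale (48.1% of all genes) and 16 without MT- genes (39.4%).

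The AsPC-1 trametinib library held the lowest of the 4 AsPC-1 values for 22 of the 38 genes, against 21.6% of all genes, and that with both compounds the highest for 21, against 23.4%. Without MT- genes these were 23 and 16, against 21.2% and 18% of all genes. In PANC-1 the trametinib library held the highest value for 18 genes on the TPM scale, against 26.5% of all genes, and for 22 without MT- genes, against 27.8%. The PANC-1 vehicle library was lowest for 20 genes on the TPM scale (28.4% of all genes) but for 11 without MT- genes (21.2%), where the library with both compounds was lowest for 13 and that with roseoflavin for 12. The coefficient of variation over the 4 libraries of a line had a median of 5.89% in AsPC-1 and, in PANC-1, of 4.37%. Estimated read counting alone gives 3.02% in each. It was widest for NDUFA8 (11.8%) and NDUFS6 (11.5%) in AsPC-1. NDUFA8, an intermembrane-space subunit, ranged from 61.4 TPM with roseoflavin to 81.4 TPM with both compounds, and NDUFS6, which binds zinc in the N module, from 156 TPM with trametinib to 202 TPM with both. With 1 library for each treatment, an effect of the compounds and the handling of single cultures cannot be told apart here.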

How the data were processed

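RNA of 8 spheroid cultures was sequenced as described above. The authors deposited 1 table of TPM values, commas within numbers were removed, and 985926 blank rows were dropped. Per the submitters' processing notes STAR 2.7.3a, HTSeq 2.0.2 and hg38 were used; the annotation and the counting settings are not given in the sources used here. Multiplied by merged GENCODE 29 exon lengths, the TPM values fall on whole multiples of 1 value per library (93.9% to 94.7% of single-exon-block genes under 100 reads lie within 0.1 of a whole number), from which reads were estimated. Reads are whole in all 8 libraries with the GENCODE 29 length for 12 of the 38 genes and with another length for 21. That other length is the nearest to the GENCODE length that fits, and it can lie far from it (13738 against 9851 bases for NDUFA5). For 5 genes no length was recovered, and their reads rest on the GENCODE length. Log2(TPM + 1) of the 19122 genes with at least 1 TPM in 2 libraries was fitted with limma 3.58.1 (R 4.3.3; trend) on line, roseoflavin and trametinib, or on compound effects within each line, and p-values were adjusted by Benjamini-Hochberg over all genes. Alternatives were rescaling without the 37 MT- genes, quantile normalization, other pseudocounts and filters, fewer covariates and leaving out each library. The fits were tested on simulated data with known changes, where the median estimate had to match the change. The share of such changes detected is not given here, so that test does not show which compound effects could be found. The members, the gene lists and the rule for named genes (NDUFV1, the 3 most and least abundant, the 3 extreme estimates of each effect and those past the threshold) were chosen with earlier results of these data known. Within-library ratios and the motifs were added later. One of the 38 genes enters the counts and sums but is not reported here by name. Promoter sequences are from RefSeq (GRCh38.p14).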

Additional observations from a re-analysis of the deposited data

How the results depend on the processing

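The scaling decided the comparison of the lines. Without MT- genes 10 members were higher in PANC-1 and 15 higher in AsPC-1, with a median of -0.036 and a ratio of sums of 1.07. After quantile normalization these were 9 and 18, with a median of -0.11, against 41.6% and 37.5% of all genes and a median of 0.04. The log2 difference between the lines turned sign without MT- genes in 13 members: NDUFA1 -0.15, NDUFA10 -0.022, NDUFA6 -0.073, NDUFAB1 -0.028, NDUFB1 -0.19, NDUFB10 -0.038, NDUFB2 -0.24, NDUFB6 -0.15, NDUFB9 -0.35, NDUFS1 -0.035, NDUFS3 -0.088, NDUFV1 -0.12 and NDUFV2 -0.16. It turned sign after quantile normalization in 14 members: NDUFA10 -0.18, NDUFA11 -0.10, NDUFA6 -0.12, NDUFA8 -0.041, NDUFAB1 -0.074, NDUFB1 -0.31, NDUFB2 -0.36, NDUFB6 -0.21, NDUFB9 -0.50, NDUFC1 -0.10, NDUFS1 -0.16, NDUFS3 -0.17, NDUFV1 -0.17 and NDUFV2 -0.21. The pseudocount, the filters on low values and the covariates turned no named estimate, though NDUFB1 and NDUFB2 lost their TPM call under some of them as given above.

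Leaving out each library in turn gave 26 to 28 members higher in PANC-1, 5 to 7 higher in AsPC-1 and a median of 0.31 to 0.36. Estimates that crossed 0 were the line difference of NDUFB9 (-0.0349 to 0.0714) and NDUFV3 (-0.0538 to 0.0397), the roseoflavin effect of NDUFV1 over both lines (-0.0674 to 0.0192) and in AsPC-1 of NDUFS7 (-0.20 to 0.0267) and NDUFA13 (-0.0146 to 0.28), the trametinib effect in AsPC-1 of NDUFA8 (-0.099 to 0.40), and the line difference in the roseoflavin effect of NDUFA8 (-0.10 to 0.40). NDUFA2 passed the threshold for the lines without the PANC-1 trametinib library (-0.11, adjusted p = 0.0499 by limma). No compound effect passed it for any member under any alternative run. With 1 library per treatment, compound effects rest on 2 to 4 residual degrees of freedom. Replicates could not be paired because each group has 1 library and the labels give no replicate numbers. Both lines received the same treatments, and the fit of the line difference held terms for both compounds.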
